A study of Homo sapiens with 8 samples.

Results

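The genes of the MEF2 family (MEF2A, MEF2B, MEF2C and MEF2D), SRF and its coactivators MYOCD, MRTFA and MRTFB were examined for open chromatin during the differentiation of RUES2 cells, a human embryonic stem cell line, into cardiomyocytes. All ATAC-seq peaks within the span of each gene or within 50 kb of it were taken from the 8 libraries and merged where they overlapped. This gave 231 of the 285853 merged regions on chromosomes 1 to 22 and X, at 8 of 19962 protein-coding genes. The regions of each locus were numbered along the chromosome, and distances are given from the start of the MANE Select transcript. MEF2A held 29 regions, MEF2B 27, MEF2C 47, MEF2D 23, SRF 20, MYOCD 20, MRTFA 34 and MRTFB 31.

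The 4 stages were sampled with 2 libraries each, described as biological replicates: hESC (day 0), MES or mesoderm (day 2), CP or cardiac progenitor (day 5) and CM or cardiomyocyte (day 14). The hESC cultures grew in E8 and had received CHIR-99021, an inhibitor of GSK3 that activates Wnt signalling, since the day before collection. The MES cultures had then been moved to RBA media with CHIR-99021, and the CP and CM cultures were later given Xav-939, an inhibitor of Wnt signalling, which only the CM cultures then left for media without inhibitors. All stages come from 1 cell line, and whole cultures were measured, so that a smaller share of cells with an open region and less accessibility in each cell cannot be told apart.

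MEF2 proteins and SRF are MADS-box transcription factors. MEF2 proteins bind the A and T rich MEF2 box of muscle, neural and immune genes and are held in check by class IIa histone deacetylases. SRF binds the CArG box and can pair with ETS factors at growth-response genes, or with the myocardin family at muscle and cytoskeletal genes. MYOCD is a coactivator of heart and smooth muscle, whereas MRTFA and MRTFB are widely made and are kept out of the nucleus by unpolymerized actin. MEF2C is needed for heart development, and MEF2A and MEF2D are active in postnatal and skeletal muscle among other tissues.

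The lists differed in length, from 55777 peaks in CM replicate 2 to 156179 in MES replicate 2. Absence from a list means only that the caller's q-value threshold of 0.01 was not reached in that library, which happens more easily at low depth. Cardiomyocyte genes had a peak within 500 bp of their start at 3 and 4 of 8 markers in the hESC libraries and at 8 and 7 of 8 in the CM libraries. Stem cell markers went from 6 of 7 in both hESC libraries to 3 of 7 in both CM libraries, which lacked the peaks at NANOG, DPPA4 and TDGF1, whereas POU5F1 had no peak in any of the 8 libraries. Smooth muscle and fibroblast markers stood at 3 of 5 in both hESC libraries and 4 of 5 in both CM libraries, and endothelial markers at 2 of 4 in both hESC libraries and 1 and 2 of 4 in the CM libraries. Cardiac progenitor markers went from 3 and 5 of 7 in hESC to 6 and 7 of 7 in CM. Mesoderm markers stood at 6 of 6 in both hESC libraries and 5 of 6 in both CM libraries. Neural markers stood at 2 of 2 in all 8 libraries, and endoderm markers at 2 of 2 in all but CM replicate 2, which had 1. A peak at a marker start therefore does not by itself give the stage or cell type. The part of other cell types in the results below was not tested.

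Sequences are shown first for 4 regions open in CM and not in hESC that hold matches, and for some start sites with SRF or MEF2 boxes. They are from GRCh38, in 5′ to 3′ direction, on the plus strand. MRTFA region 24 and MEF2D region 15 were of the same kind but held none of the short sequences looked for, and are not printed. The first 4 regions had peaks in both CM libraries and in neither hESC library. MYOCD region 3 is 30.7 kb before the start (chr17:12635126-12635325), MEF2A regions 13 and 14 lie in an intron (chr15:99668868-99669067 and chr15:99669371-99669570) and MRTFA region 16 lies in an intron (chr22:40499228-40499427). Capitals mark GATAA, the core bound by GATA factors, TNAAGTG, a match for NKX factors, and the CArG box, each on either strand.
MYOCD region 3: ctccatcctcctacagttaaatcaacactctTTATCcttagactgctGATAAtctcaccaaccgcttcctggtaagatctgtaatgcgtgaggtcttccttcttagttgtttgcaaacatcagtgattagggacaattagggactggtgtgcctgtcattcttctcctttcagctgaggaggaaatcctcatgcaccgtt
MEF2A region 13: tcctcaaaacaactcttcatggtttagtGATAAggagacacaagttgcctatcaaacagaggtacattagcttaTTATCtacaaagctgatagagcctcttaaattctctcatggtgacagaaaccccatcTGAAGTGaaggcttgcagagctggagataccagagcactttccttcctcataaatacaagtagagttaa
MEF2A region 14: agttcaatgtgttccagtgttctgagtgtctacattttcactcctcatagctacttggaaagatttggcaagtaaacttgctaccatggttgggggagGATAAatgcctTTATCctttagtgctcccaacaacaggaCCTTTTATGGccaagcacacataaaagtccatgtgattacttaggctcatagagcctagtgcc
MRTFA region 16: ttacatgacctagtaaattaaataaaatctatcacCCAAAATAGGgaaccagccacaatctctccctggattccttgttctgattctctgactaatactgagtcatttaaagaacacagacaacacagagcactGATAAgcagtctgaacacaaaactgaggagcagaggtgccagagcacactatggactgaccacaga

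Some start sites with a box for the family's own factors follow. The MEF2A start, the internal MEF2D start of region 17 and another internal MEF2C start also hold MEF2 boxes and are not printed. MEF2C region 28 (chr5:88785979-88786178) lies at an internal start of MEF2C and holds 2 MEF2 boxes, printed in capitals. The upstream bases of the SRF start (chr6:43171019-43171268), credited to RefSeq on GRCh38, hold 2 CArG boxes next to the start, and those of an internal MRTFB start (chr16:14186436-14186685), also from RefSeq, hold 1 MEF2 box.
MEF2C region 28: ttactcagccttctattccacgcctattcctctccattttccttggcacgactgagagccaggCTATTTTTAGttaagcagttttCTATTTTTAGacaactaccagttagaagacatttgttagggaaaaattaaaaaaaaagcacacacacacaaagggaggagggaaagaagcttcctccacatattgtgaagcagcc
SRF upstream bases: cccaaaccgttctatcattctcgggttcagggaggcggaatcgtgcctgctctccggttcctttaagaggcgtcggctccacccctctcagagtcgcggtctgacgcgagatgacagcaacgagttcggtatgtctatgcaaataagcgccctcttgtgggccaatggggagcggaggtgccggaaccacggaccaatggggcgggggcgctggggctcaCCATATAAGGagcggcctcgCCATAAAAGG
MRTFB internal start: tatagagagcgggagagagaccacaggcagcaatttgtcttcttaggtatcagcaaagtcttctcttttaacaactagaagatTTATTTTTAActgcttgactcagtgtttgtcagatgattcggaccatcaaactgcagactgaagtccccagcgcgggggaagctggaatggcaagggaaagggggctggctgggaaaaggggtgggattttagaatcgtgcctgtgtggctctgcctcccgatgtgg

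The start sites of all 8 genes were open throughout. Each MANE Select start had a peak in all 8 libraries, so that the changes over differentiation lay in other regions or in the height of the start-site peaks. The fold, which is the read pileup at a summit divided by the local background of the peak caller, was 7.79 and 8.96 at the MYOCD start in the hESC libraries, 7.99 and 8.45 at MES, 7.66 and 8.66 at CP and 7.78 and 7.95 at CM. The stages overlapped, as they did at SRF, with 5.61 and 5.20 in hESC, 5.33 and 5.39 at MES, 5.59 and 5.69 at CP and 5.27 and 6.38 at CM. At the MEF2C start the fold was 7.88 and 9.72 in hESC, 8.14 and 8.33 at MES, 8.16 and 5.80 at CP and 8.43 and 7.14 at CM. MEF2D stood lowest, with 4.13 and 4.06 in hESC, 4.80 and 5.14 at MES, 4.85 and 4.82 at CP and 4.69 and 5.88 at CM. Both CM values of MEF2D lay above both hESC values. The MEF2A start ranged from 6.26 to 7.41 over the 8 libraries, MEF2B from 5.41 to 8.85, MRTFA from 8.71 to 11.8 and MRTFB from 6.48 to 10.1. The stages overlapped at MEF2A and MRTFA. At MEF2B both CM values, 5.96 and 5.41, lay below the other 6 libraries, and at MRTFB both MES values, 9.01 and 10.1, lay above the other 6, although neither start was called in the limma fit of the fold (adjusted p of the F test 0.904 and 0.637).

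Away from the starts, regions came and went. A region was called gained between 2 stages when both libraries of the later stage and neither of the earlier one held a peak, and lost in the reverse case. From hESC to CM, 10 member regions were gained (4.33%, against 3.15% of all regions) and 32 were lost (13.9%, against 13.5%). The gained regions were 4 at MYOCD, 3 at MRTFA, 2 at MEF2A and 1 at MEF2D, and none at MEF2B, MEF2C, SRF or MRTFB. All 10 were distal, that is more than 500 bp from any annotated coding start. MEF2C alone had 10 of the lost regions and MEF2B 5, with 4 each at MEF2A, MEF2D and MRTFA, 3 at MRTFB and 1 each at SRF and MYOCD. The shares of the members lay near those of all regions and do not set the 8 loci apart.

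Step by step, 8 regions were gained from hESC to MES (3.46%, against 6.02% of all regions) and 10 were lost (4.33%, against 3.96%). From MES to CP, 8 were gained (3.46%, against 2.14%) and 13 lost (5.63%, against 6.13%). From CP to CM, 7 were gained (3.03%, against 1.41%) and 10 lost (4.33%, against 6.34%). The balance of gains and losses moved with the length of the lists. With lists cut to the length of the shortest, 17 regions were gained and 7 lost from hESC to CM, and without CM replicate 2 the counts were 37 and 36.

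The members were open in more libraries than the average of all regions, which include those far from genes. Regions of other gene loci were not compared. Of the 231 regions, 43 (18.6%) had a peak in all 8 libraries, against 9.84% of all regions, and 79 (34.2%) had one in a single library, against 40.7%. Of the 231, 20 lay at starts of the members themselves and 14 at starts of other genes. Counting those seen in a single library, 102 regions (44.2%, against 53.8% of all regions) were held by both libraries at no stage.

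MYOCD (chr17:12665890-12768949, + strand), the myocardin gene, had the most gained regions of the 8. Its region 3, 30.7 kb before the start, had no peak in either hESC library, a fold of 7.12 and 8.91 at MES, 7.82 and 12.0 at CP and 9.09 and 7.99 at CM. It was present from MES onward in every library. Region 1, 42.5 kb before the start, had folds of 5.51 and 5.79 in CM and 3.44 in MES replicate 2 alone. Region 20, in an intron of ARHGAP44 at 129 kb, had 5.08 and 6.05 in CM, 7.89 in CP replicate 2 and 4.36 in MES replicate 1. Both were seen in single libraries of earlier stages and in both CM libraries. The remaining gained region, region 16 in a MYOCD intron at 69.2 kb, was weaker, with 4.16 and 4.17 in CM and 3.96 in CP replicate 2.

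Other MYOCD regions were held by few libraries. Region 11, in an intron at 50.4 kb, was held by both CP libraries (4.05 and 9.84) and by CM replicate 1 (5.10), and region 5, 15.6 kb before the start, by both CP libraries (3.42 and 3.72) and hESC replicate 2 (3.38). Region 13, in an intron at 54.3 kb, was an hESC region, with folds of 5.75 and 8.54 and no peak in the other 6 libraries. An annotated internal start at 78.5 kb (region 18) had a single peak, in CM replicate 1 (3.68).

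**Figure D1:**
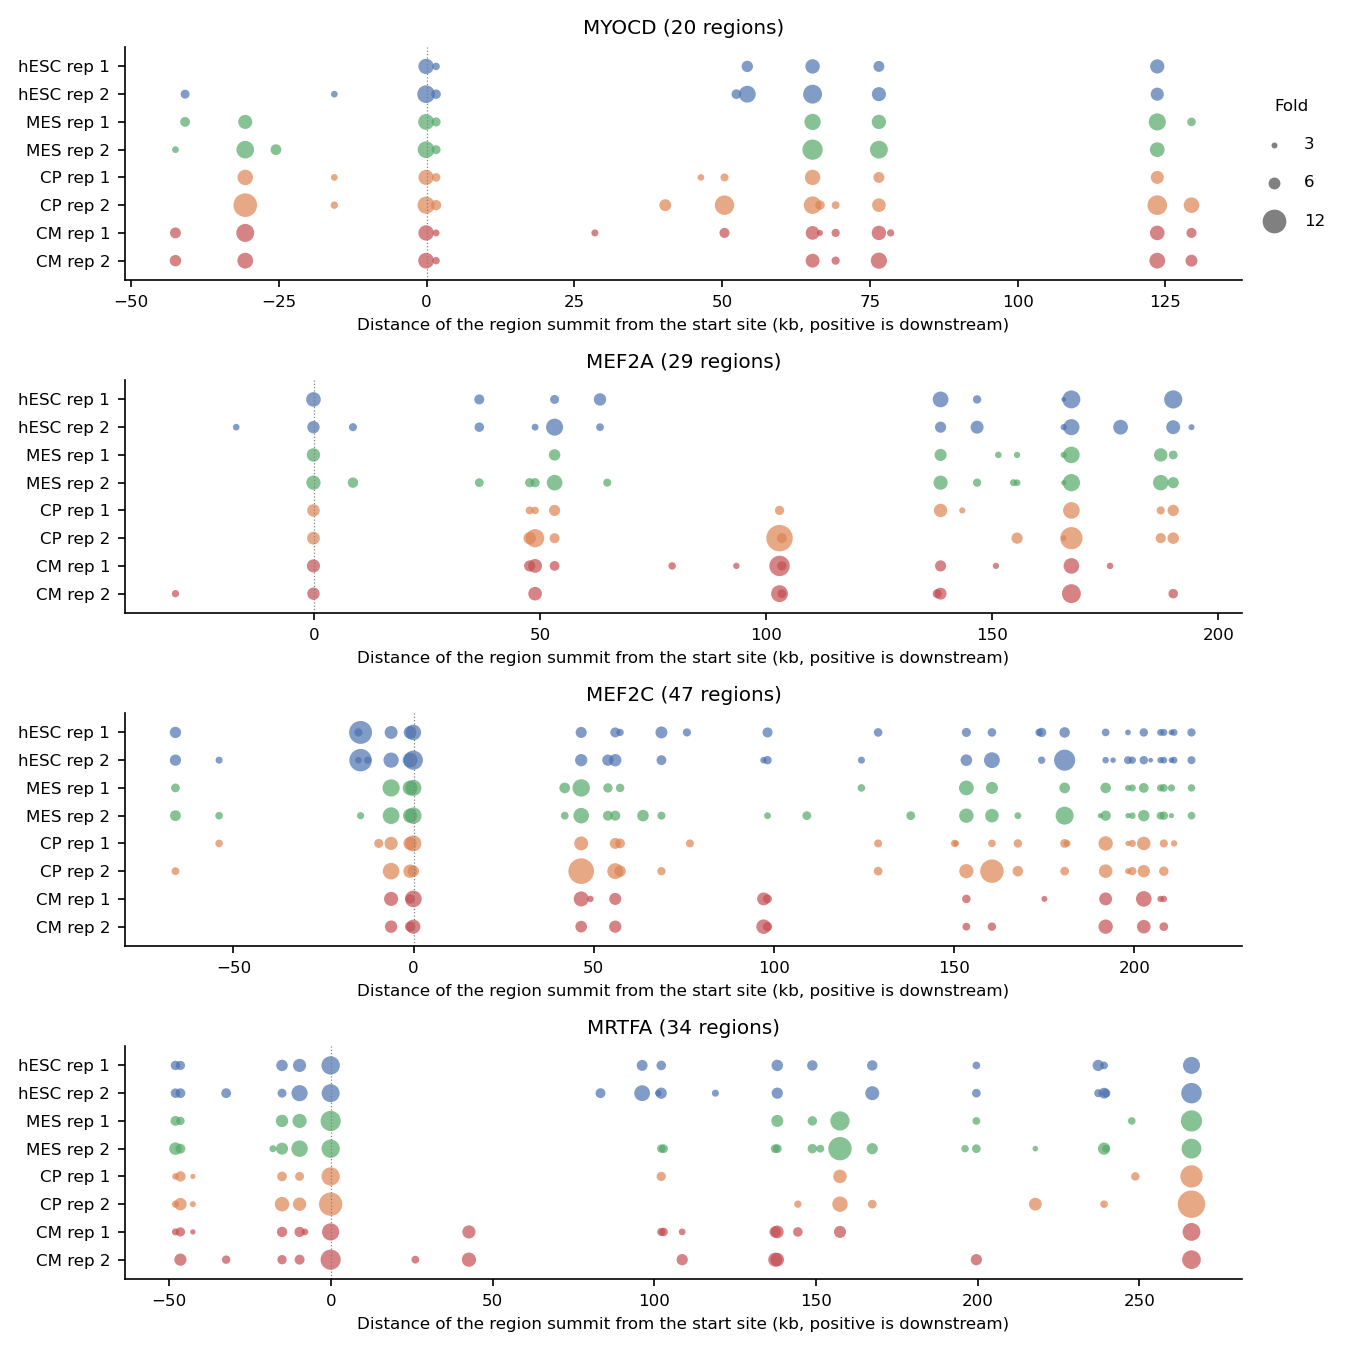
Peaks of 4 loci by distance of the region summit from the MANE Select start (x axis, kb) and library (rows), where the area of a point grows with the square of the fold. MYOCD region 3 at −30.66 kb is empty in both hESC rows and filled in the other 6, and MEF2A region 13 at 102.98 kb is filled in the 4 CP and CM rows only.

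The fold divides by the local background, and around MYOCD that background moved as well. Read pileup and background were recovered for each peak from the deposited fold and p-value, and the pileup was expressed over the lowest background of the library. At the MYOCD start it was 19.5 and 18.8 in hESC, 18.1 and 18.3 at MES, 19.8 and 34.8 at CP and 24.9 and 28.4 at CM. Both CM libraries exceeded both hESC libraries. In an intronic region at 65.3 kb (region 14) the values were 13.7 and 14.9 in hESC, 15.5 and 18.3 at MES, 20.6 and 42.1 at CP and 25.4 and 25.6 at CM, so that all 4 late libraries lay above all 4 early ones. Before centring on the library median, the pileup at the start was higher in CM than hESC by 0.47 on the log2 scale and the background by 0.60, and at region 14 the pileup was higher by 0.83 and the background by 1.19.

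In the fit of this pileup over the 28115 regions called in all 8 libraries, by limma on log2 values centred on the library median, all 5 such regions at MYOCD were higher in CM than hESC. At the start the difference was 0.87 ± 0.15 (SE, n = 2 and 2 libraries), with an adjusted p of 3.86e-05, and at region 14 it was 1.23 ± 0.16, with an adjusted p of 3.98e-07 by limma. Of all regions, 17.2% were called higher and 7.89% lower in CM in that fit, and the F test over the stages called 23.5%. The median over all regions was lower in CM by 0.40 before centring, and the differences given are relative to that shift. With no centring only region 14 stayed called, with a difference of 0.83 (limma adjusted p = 0.00815). In the corresponding limma fit of the fold itself, the start differed by 0.13 ± 0.14 and was not called (adjusted p = 0.536), nor was region 14 (−0.04 ± 0.16, adjusted p = 0.878).

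MRTFA (chr22:40410281-40636719, − strand), a widely made myocardin-related coactivator, gained 3 intronic regions. Region 24, at 42.7 kb, had folds of 6.66 and 7.22 in CM and no peak in the other 6 libraries. Region 16, at 137 kb, with its CArG box shown above, had 5.74 and 7.10 in CM and 4.46 in MES replicate 2. Region 18, at 109 kb, had 3.41 and 5.70 in CM only. These 3 are held by both CM libraries and by no CP library.

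An MRTFA region of the middle stages was stronger than any of them. Region 11, in an intron at 157 kb, had no peak in hESC, 9.74 and 11.8 at MES, 6.86 and 7.80 at CP and 6.10 in CM replicate 1 alone. Region 22, at 96.2 kb, was open in hESC only, with 5.53 and 8.01, and region 10, at 167 kb, had 5.25 and 7.09 in hESC, 5.67 in MES replicate 2 and 4.41 in CP replicate 2. Region 13, at 149 kb, was called at MES only by the rule, with 4.79 and 4.80, but also had 5.28 in hESC replicate 1. Of the internal starts of MRTFA, that at 200 kb (region 8) had 3.91 and 4.39 in hESC, 3.94 and 4.41 in MES and 5.69 in CM replicate 2. The internal starts at 144 kb and 103 kb (regions 14 and 19) had peaks in 2 libraries each, between 3.72 and 4.82.

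MRTFB (chr16:14071319-14266773, + strand), the related coactivator, gained no region from hESC to CM. Its internal start at 115 kb (region 17), whose upstream bases hold the MEF2 box shown above, had a peak in all libraries. The pileup there over the lowest background was 7.98 and 5.41 in hESC, 5.84 and 8.13 at MES, 7.34 and 11.2 at CP and 12.0 and 15.4 at CM. Both CM values exceeded all others. The difference between CM and hESC was 1.45 ± 0.27 in the limma fit of the pileup (adjusted p = 8.9e-05), and 1.05 with an adjusted p of 0.0128 by limma with no centring. In the limma fit of the fold it was 0.62 ± 0.19 (adjusted p = 0.0421), and the sign turned, to −0.06, when fold was summed over the peaks of the region.

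The remaining MRTFB regions were mostly weak or held by few libraries. Region 2, 41.4 kb before the start, was held by all CP and CM libraries (folds of 4.34 and 5.34, and 3.15 and 4.24) and by hESC replicate 2 (3.36). Region 3, 28.4 kb before the start, was held only by the CP libraries (4.10 and 7.67). Region 16, at 109 kb, had 4.70 and 4.88 in CP, and single peaks of 6.76, 6.48 and 4.19 in 1 library of each other stage. Region 30, 238 kb from the start, was lost, with 3.94 and 3.98 in hESC, 3.91 and 4.33 in MES and none later, as was region 31 nearby, with 3.50 and 3.83 in hESC. Both lie past the 3' end of MRTFB, and region 30 lies at an annotated start of the microRNA gene MIR365A.

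SRF (chr6:43171269-43181506, + strand), the shortest of the 8 genes, hardly changed in which regions were open. No SRF region was gained at any step, and 1 was lost from hESC to CM, at a start of PTK7. Its 5 regions present in all libraries were the SRF start, an SRF intron at 3.43 kb and the starts of PTK7, CUL9 and DNPH1. The pileup at the SRF start over the lowest background was 38.6 and 33.8 in hESC, 41.5 and 38.9 at MES, 37.8 and 50.8 at CP and 32.6 and 46.5 at CM. The stages overlapped, although the centred limma fit of the pileup gave CM a difference of 0.50 ± 0.17 (adjusted p = 0.0274), which was 0.11 (adjusted p = 0.873) with no centring and was not called without CM replicate 2, either hESC library or either MES library. The fold there differed by 0.32 ± 0.17, with a limma adjusted p of 0.211.

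MEF2A (chr15:99565417-99716488, + strand), a MEF2 gene active in many tissues, gained 2 neighbouring intronic regions, 103 kb from the start. Region 13 had folds of 4.70 and 13.4 in CP and 10.3 and 8.54 in CM and no peak in hESC or MES. The CP libraries stood far apart, and both CM values lay between them. Region 14, just downstream of it, had a fold of 5.02 in CP replicate 2 and folds of 4.65 and 4.43 in CM. Region 7, at 48.9 kb, was present in all CP and CM libraries (3.78 and 9.26, and 7.02 and 6.90) and in hESC replicate 2 (3.48) and MES replicate 2 (4.63). Region 6, at 47.7 kb, had 4.02 and 6.29 in CP, 5.65 in CM replicate 1 and 4.66 in MES replicate 2.

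Among the MEF2A regions lost from hESC to CM, region 5 in an intron had 5.08 and 4.81 in hESC and 4.46 in MES replicate 2. Region 18, over coding sequence at 147 kb, had 4.25 and 6.57 in hESC and 4.17 in MES replicate 2. Region 22, in an intron of LYSMD4, was called at MES only (3.19 and 3.36), with a peak of 5.70 in CP replicate 2 as well.

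MEF2B (chr19:19145567-19192131, − strand), a MEF2 gene best known from B cells, lies among 7 other coding genes, and 9 of its 27 regions were open in all libraries. No region was gained from hESC to CM. Region 13, in an intron at 9.53 kb, was lost, with 4.04 and 4.76 in hESC, 4.84 and 4.37 at MES and 4.06 in CP replicate 1. Region 16, 4.93 kb before the start, was lost likewise, with 3.64 and 4.07 in hESC, 3.80 and 4.09 at MES and 4.97 in CP replicate 2. Its outer start, shared with BORCS8 and RFXANK (region 18), stayed between 8.17 and 10.4 in all libraries.

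MEF2C (chr5:88717117-88904257, − strand), the MEF2 gene needed for heart development, had the most regions and the most losses. Among the lost regions, regions 1, 2, 3 and 9 lie beyond its 3' end, at annotated starts of the noncoding gene LINC00461. Region 44, in an intron 14.7 kb before the MANE Select start, had folds of 11.6 and 11.4 in hESC, 3.65 in MES replicate 2 and no peak in the other 5 libraries. It was the highest MEF2C region in both hESC libraries. Region 47, 66.1 kb before the start, had 5.74 and 5.70 in hESC, 4.45 and 5.47 at MES, 3.95 in CP replicate 2 and none in CM.

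The internal starts of MEF2C differed among themselves. Region 28, 97.1 kb into the gene and holding the pair of MEF2 boxes shown above, had 6.55 and 7.35 in CM, none in MES or CP and 3.32 in hESC replicate 2. It was gained from CP to CM but not from hESC to CM by the rule, because of that weak hESC peak. Region 27, beside it at 98.2 kb, had 5.09 and 4.27 in hESC, 3.44 in MES replicate 2, none in CP and 4.49 and 4.72 in CM. Region 34, at 56.0 kb, had peaks in all libraries but MES replicate 1, between 5.07 and 8.07. Region 33, at 57.3 kb, was called at CP (4.91 and 5.80) and in hESC replicate 1 (3.69) and MES replicate 1 (4.30). Region 40, next to the MANE Select start, was open in all libraries, with 6.46 and 7.50 in hESC and 4.80 and 5.18 in CM, and was not called in the limma fit of the fold (−0.26 ± 0.17, adjusted p = 0.294).

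At MES, MEF2C region 35 had 4.75 and 5.00, with 5.74 in hESC replicate 2, and region 38 had 5.42 and 3.95 in MES alone. At CP, region 18 beyond the 3' end had 4.27 and 5.34, with 3.44 in MES replicate 2. The pileup at the MEF2C start over the lowest background was 14.4 and 16.5 in hESC, 16.1 and 16.5 at MES, 14.7 and 13.9 at CP and 18.8 and 19.7 at CM. Both CM values exceeded all others, and the difference from hESC was 0.72 ± 0.19 in the centred limma fit (adjusted p = 0.00486) and 0.32 (adjusted p = 0.465) with no centring. It was 0.62 and not called without hESC replicate 1 (limma adjusted p = 0.072).

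MEF2D (chr1:156463727-156500779, − strand), a widely made MEF2 gene, gained region 15 in an intron at 11.5 kb, with no peak in hESC, 3.36 and 4.84 in MES, 4.59 in CP replicate 2 and 4.42 and 4.35 in CM. Region 22, 25.5 kb before the start over IQGAP3, was lost, with 6.42 and 7.25 in hESC, 5.18 and 7.48 in MES and none later. Region 19, 2.69 kb before the start, had peaks in hESC only, of 3.39 and 3.46. MES-only regions were region 11, with 5.01 and 5.44 and a peak of 3.29 in CP replicate 1, and region 13, with 4.34 and 4.98. The internal start at 10.3 kb (region 17), which also holds 2 MEF2 boxes, had peaks in 7 libraries, between 3.40 and 4.50.

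The fit of the fold over regions called in all 8 libraries asked which open regions rose or fell relative to the library median, beyond the spread between replicates. Of the 43 member regions, 4 changed over the stages by the F test (10.1% of all 28115 regions did), 8 were higher in CM than hESC (6.33% of all) and 1 was lower (6.04% of all). With no centring 2 were higher and 1 was lower. Of the 43, 15 had an unadjusted F p and 14 an unadjusted p for CM against hESC under the 0.05 threshold. The median difference was 0.18 over the members and 0.10 over all regions. The regions named from this fit were chosen after their values were seen.

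Regions beyond the 3' end of MEF2C led the rises in fold. Of these, region 11 lies at an annotated start of the noncoding gene LINC00461, as does region 4 below. Region 11, 192 kb from the start, had 3.91 and 3.31 in hESC, 5.35 and 5.22 at MES, 7.26 and 6.87 at CP and 6.53 and 7.25 at CM, a difference of 1.16 ± 0.18 (limma adjusted p = 0.0015). Region 7, at 203 kb, had 4.27 and 4.25 in hESC, 4.97 and 5.76 at MES, 6.82 and 6.26 at CP and 7.89 and 6.88 at CM, a difference of 1.01 ± 0.18 (limma adjusted p = 0.00339). In both, the stages CP and CM lay above hESC and MES in every library. Here the local background fell. Before centring it was lower in CM than hESC by 1.00 on the log2 scale at region 11 and by 1.23 at region 7. The pileup itself gave differences of 0.45 ± 0.19 (limma adjusted p = 0.071) and 0.08 ± 0.17 (adjusted p = 0.753). The neighbouring region 4, at 208 kb, was lower in CM in pileup, by −0.83 ± 0.22 (limma adjusted p = 0.00447), and not in fold (0.34 ± 0.17, adjusted p = 0.168).

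At MEF2B the fold moved both ways, at regions of neighbouring genes. Region 7, over the UTR of TMEM161A, had 3.50 and 4.57 in hESC, 3.87 and 4.76 at MES, 3.97 and 6.21 at CP and 6.43 and 5.84 at CM, a difference of 0.84 ± 0.18 (limma adjusted p = 0.0102). Region 17, at a start of BORCS8, had 7.04 and 8.42 in hESC, 5.52 and 7.52 at MES, 3.79 and 5.26 at CP and 3.54 and 3.78 at CM, a difference of −0.85 ± 0.17 (limma adjusted p = 0.00631). In both the CM and hESC values did not overlap. The pileup gave 0.99 ± 0.22 (limma adjusted p = 0.000847) for region 7 and −0.64 ± 0.25 (adjusted p = 0.0566) for region 17. With no centring region 7 was not called in fold (0.62, limma adjusted p = 0.151) or pileup (0.59, adjusted p = 0.138), whereas region 17 was lower in both (−1.07, adjusted p = 0.02, and −1.04, adjusted p = 0.0129). The fold call of region 7 was also lost without hESC replicate 1 (0.66, limma adjusted p = 0.103) or CM replicate 1 (0.73, adjusted p = 0.0589), and that of region 17 without hESC replicate 2 (−0.74, adjusted p = 0.0762).

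The other calls were smaller. They were the MEF2D start (0.58 ± 0.17, limma adjusted p = 0.0424), MYOCD region 17 in an intron at 76.5 kb (0.51 ± 0.16, adjusted p = 0.0498), the MRTFB internal start given above and 2 regions past the 3' end of MRTFB, region 22 (0.61 ± 0.15, adjusted p = 0.0205) and region 27 (0.62 ± 0.17, adjusted p = 0.0298). None of these 5 stayed called with no centring, and each lost its call without hESC replicate 1, hESC replicate 2, CM replicate 1 or CM replicate 2.

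**Figure D2:**
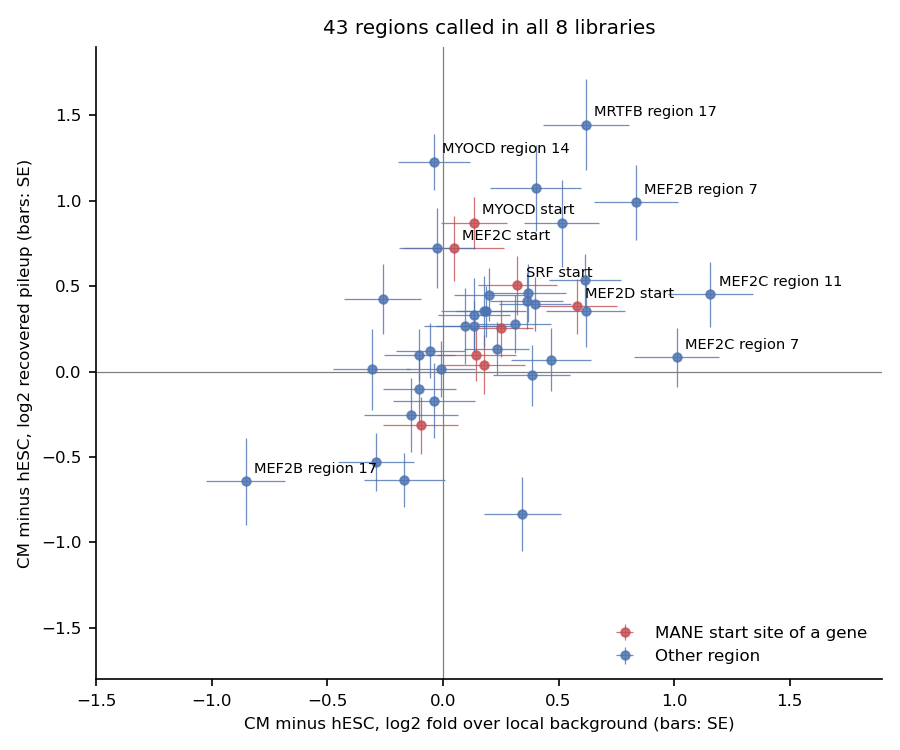
Difference of CM minus hESC in log2 fold over local background (x axis) and in log2 recovered pileup (y axis), both centred on the library median, for the 43 member regions called in all 8 libraries, with bars of 1 SE. MEF2C regions 7 and 11 lie far to the right, at 0.08 and 0.45 on the y axis, and the MYOCD start and MYOCD region 14 lie near 0 on the x axis and high.

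In pileup, 15 of the 43 regions changed over the stages by the F test (23.5% of all regions), 12 were higher in CM (17.2% of all) and 3 were lower (7.89% of all). With no centring the balance turned, to 2 higher (1.16% of all) and 5 lower (14.8% of all). Those higher were MYOCD region 14 and the MRTFB internal start, and those lower were MEF2B regions 1 and 17, the MEF2B start (−0.71, limma adjusted p = 0.0325), MEF2C region 4 and MEF2D region 3. MEF2B region 1 lies outside MEF2B, in an intron of SLC25A42, 64.5 kb from the MEF2B start. MEF2D region 3 lies beyond the 3' end of MEF2D, at an annotated start of the noncoding gene MIR9-1HG. MEF2D region 6, given below, is also beyond that end. The calls lower in CM after centring were MEF2C region 4, MEF2B region 1 (−0.53 ± 0.17, limma adjusted p = 0.0198) and MEF2D region 3 (−0.63 ± 0.16, adjusted p = 0.00277). Without hESC replicate 1 the calls of MEF2B region 1 (limma adjusted p = 0.118) and MEF2D region 3 (adjusted p = 0.13) were lost, and that of MEF2B region 1 was also lost without hESC replicate 2 or CM replicate 2. MEF2D region 6 changed by the F test alone (limma adjusted p = 0.00029), with 14.4 and 12.99 in hESC, 30.1 and 26.9 at MES, 22.8 and 22.1 at CP and 9.41 and 12.6 at CM over the lowest background. Its MES and CP libraries all lay above its hESC and CM libraries.

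The number of peaks over a whole locus asks whether a gene gathered more or fewer open regions relative to the length of each list. MYOCD held 5.82 and 5.77 peaks per 100000 in hESC, 7.38 and 5.12 at MES, 9.02 and 9.99 at CP and 14.0 and 16.1 at CM. In peaks these are 6 and 9, 8 and 8, 9 and 12, and 13 and 9. The mean was 5.79 ± 0.04 (SD, n = 2) in hESC and 15.1 ± 1.5 in CM, a difference of 1.24 ± 0.26 on the log2(value + 1) scale (limma adjusted p = 0.00065). It was the only member of 8 called higher in CM (6.97% of 14592 genes were), and none was called lower (3.27% of genes were). The call was lost with lists of equal length (difference 1.06, limma adjusted p = 0.0934) and with no filter on low values (1.24, adjusted p = 0.0925).

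By the F test over the stages 2 members changed, MYOCD (limma adjusted p = 0.000938) and MRTFA (adjusted p = 0.0435), against 7.8% of genes. MRTFA held 14.5 and 12.2 peaks per 100000 in hESC, 11.1 and 12.8 at MES, 10.0 and 9.99 at CP and 17.3 and 21.5 at CM, so that both CM values exceeded all others. In peaks these are 15 and 19, 12 and 20, 10 and 12, and 16 and 12, where CM does not exceed hESC. The F call of MRTFA was lost when any library other than CM replicate 1 was left out. Relative to list length, MEF2A (from 8.31 to 16.1 over the libraries), SRF (from 6.41 to 10.8) and MRTFB (from 7.04 to 16.1) were highest in both CM libraries too. Their limma adjusted p values were 0.073, 0.0973 and 0.439 for CM against hESC. In peaks, MEF2A held 9 and 14 in hESC and 12 and 9 in CM. SRF held 7 and 10 in hESC and 10 and 6 in CM, and MRTFB 12 and 18 in hESC and 12 and 9 in CM. MEF2B and MEF2D ranged from 12.2 to 21.5 and from 10.9 to 15.7, and MEF2C from 15.1 to 30.1, with the highest value in hESC replicate 1. The difference of CM from hESC was 0.21 at the median of all genes and 0.40 at the median of the members.

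Short sequences were looked for, whichever strand carried them, in 200 bp around the summit of every region. GATAA was found in 53 of 231 member regions (22.9%) and in 22.7% of all regions. Among the 10 regions gained from hESC to CM it was found in 8, against 49.5% of all 9001 gained regions, and among the 32 lost in 7 (21.9%), against 17.9% of all lost regions. The gained regions without it were MEF2D region 15 and MRTFA region 24. In 100 bp around the summit it was found in 5 of the 10, against 33.3% of all gained regions. The CArG box, CC and GG around 6 bases of A or T, was found in 5 member regions (2.16%, against 1.03% of all), which were the SRF start, MEF2A regions 14 and 29, MEF2D region 8 and MRTFA region 16. The MEF2 box was found in 4 (1.73%, against 0.97%), which were the MEF2A start, MEF2B region 7, MEF2C region 28 and MEF2D region 17.

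Of the remaining sequences, TNAAGTG was found in 11.7% of member regions (10.3% of all), AGGTGT, a T-box core, in 11.7% (13.2%), GGAATG, a TEAD core, in 15.2% (14.6%), TTTGCAT, part of the POU octamer, in 5.19% (4.13%) and the CTCF core in 1.30% (2.03%). In the RefSeq promoter sequences of 300 bases, 1.29% of 35116 held a CArG box and 2.99% a MEF2 box. Of the members, SRF held the first and MEF2A, MEF2C and MRTFB the second at 1 of their starts each. Promoter sequences were matched for all members but MYOCD, and for MEF2D at an internal start only. A match is a run of letters and not a bound site.

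The partners and targets of these factors were counted in the same fit of peaks per 100000, where 7.8% of genes changed over the stages, 6.97% were higher in CM than hESC and 3.27% were lower. Of 10 tested partners and inhibitors of MEF2, 2 were higher in CM and 1 was lower. HDAC5, a class IIa histone deacetylase, rose from 10.7 and 10.2 peaks per 100000 in hESC to 15.1 and 25.1 in CM (limma adjusted p = 0.0191), and SMYD1, a muscle methyltransferase, from 3.88 and 6.41 to 10.8 and 8.96 (adjusted p = 0.0451). HDAC9, another class IIa deacetylase, fell from 41.7 and 48.7 to 24.8 and 32.3 (limma adjusted p = 0.00585). HDAC4 and HDAC7 were not called, with 13.6 and 18.6 in hESC against 15.1 and 14.3 in CM for HDAC4. Of 10 tested SRF partners and inhibitors, 2 were higher in CM and none was lower. These were ELK3, an ETS partner of SRF (difference 1.03 ± 0.26, limma adjusted p = 0.00611), and CSRP1, a LIM protein of smooth muscle (0.69 ± 0.22, adjusted p = 0.0291). These values are relative to list length, and both CM lists were shorter than those of the other stages. In peaks, the hESC and CM libraries overlapped at HDAC5, SMYD1, ELK3 and CSRP1, whereas HDAC9 was lower in both CM libraries. VGLL2 and CSRP3 were below the filter on low values.

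Of 15 SRF and myocardin targets, 1 was higher and 1 lower in CM. The gene called higher was ACTC1, the cardiac actin gene, with 2.91 and 3.20 peaks per 100000 in hESC, 3.69 and 3.20 at MES, 7.02 and 5.83 at CP and 9.71 and 12.6 at CM (difference 1.57 ± 0.32). It passed the filter of a mean of 5 only through its CP and CM libraries, so that its call is no independent evidence and its values are given as a description. Its CP and CM libraries all lay above its hESC and MES libraries. ACTA1, the skeletal actin gene, had 8.73 and 6.41 in hESC and 6.47 and 1.79 in CM (−0.89 ± 0.31, limma adjusted p = 0.0485), and TPM1, a tropomyosin, changed over the stages only (adjusted p = 0.0444). At ACTA1 the hESC and CM values overlapped, and the low value was that of CM replicate 2, the shortest list. The smooth muscle genes ACTA2, TAGLN, CNN1 and MYH11 were not called, with differences of 0.33, 0.54, 0.49 and 0.26. Of 10 MEF2 targets, none was higher and 1 was lower, XIRP2, with 16.5 and 17.3 in hESC and 5.39 and 3.59 in CM (−1.72 ± 0.26, limma adjusted p = 1.58e-06). ATP2A2 and MYL2, a calcium pump and a ventricular myosin light chain, changed over the stages only (limma adjusted p = 0.0419 and 0.0233). The median difference of the 4 lists was 0.01, 0.35, 0.33 and 0.36, against 0.21 over all genes.

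As a description, genes on other chromosomes were ranked by the Pearson correlation of their peaks per 100000 with each member over the 8 libraries, which share the length of their lists. Those most like MYOCD were KCNQ1 (r = 0.992), SFI1 (0.991) and KIAA1217 (0.986). SRF was followed most closely by TMEM247 (0.996), TLN2 (0.993) and COL22A1 (0.979), MRTFA by CFAP161 (0.983), C17orf98 (0.981) and SPSB4 (0.980) and MRTFB by DNAJB2 (0.979), MSH5-SAPCD1 (0.968) and GNL1 (0.962). MEF2A was followed by NAE1 (0.977), SSH2 (0.976) and BIK (0.974), MEF2B by TFR2 (0.990), MESD (0.988) and DPAGT1 (0.987), MEF2C by CAB39L (0.968), ZFHX2 (0.925) and PLA2G6 (0.919) and MEF2D by MFGE8 (0.964), PAPLN (0.933) and PIEZO1 (0.917).

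The limit of 50 kb left out regions close by. The nearest, 50.1 kb past the 3' end of MEF2D, had a highest fold of 3.31 in 1 library, and the outermost region kept, 49.8 kb before SRF, had 3.08 in 1 library. At MYOCD the first regions left out, 74.2 kb before and 70.1 kb after the gene, had peaks in 6 and 4 libraries, with a highest fold of 11.9 in each.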

How the data were processed

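ATAC-seq was measured in 8 libraries of RUES2 cells, 2 at each of 4 stages. Per the study's methods and the submitters' processing notes, reads were mapped to hg38 with BWA 0.7.13, filtered for primary alignments with mapping quality above 30 and stripped of duplicates with Picard, and peaks were called in each library separately with MACS2 2.1.0 (q-value 0.01, no fragment model, reads shifted by 100 bp and extended to 200 bp). Bedtools 2.26.0 is also named there. Each list deposited by the authors gives a fold (ratio) of the pileup over the local background, a −log10 p-value and a −log10 q-value for each peak, and a display score, which was not used. The pileup and background were recovered from fold and −log10 p for 100% of peaks. Read totals were not used here. The lowest background of a list, from 2.54 in CM replicate 2 to 4.62 in hESC replicate 2, stands in for depth.

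Peaks of chromosomes 1 to 22 and X were merged where they shared at least 1 bp, and regions were placed by GENCODE 44 on GRCh38. The value of a region is the highest fold of its peaks. Log2 fold, centred on the median of each library, and log2(peaks per 100000 + 1), for genes with a mean of at least 5, were fitted by stage with limma 3.58.1 in R 4.3.3, with Benjamini-Hochberg adjustment over all regions or genes and a threshold of 0.05. SE is the standard error of the fitted difference. With 2 libraries a stage, p-values measure the spread between these libraries only. In the self-test on simulated data the fit of fold recovered 72% of regions changed by 1 on the log2 scale and 95% of those changed by 2, and the fit of loci 24% and 92%.

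The members and lists were chosen with earlier results of these data known. Named regions were those at starts of the members, up to 3 gained and 2 lost from hESC to CM, up to 2 called only at MES and 2 only at CP, ranked by the lower fold of the stage, and those the fits called. Other regions named were chosen after their values were seen.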

Additional observations from a re-analysis of the deposited data

How the results depend on the processing

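Counts of gained and lost regions depended on the lists. In the order gained and lost from hESC to MES, from MES to CP, from CP to CM and from hESC to CM, a peak in either library of a stage gave 38, 42, 31, 53, 37, 40, 43 and 72 regions. Lists of equal length, with 123 member regions left, gave 6 lost from hESC to MES, 4 gained and 6 lost from MES to CP, 0 lost from CP to CM, and 17 gained and 7 lost from hESC to CM. The gene span alone gave 5, 4, 4 and 7 for the first 4 counts, 3 lost from CP to CM and 12 lost from hESC to CM. Leaving out each library in turn gave ranges of 8 to 31, 10 to 36, 8 to 20, 13 to 46, 7 to 29, 10 to 25, 10 to 37 and 32 to 64.

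Of regions open in all libraries, those changed by the F test, higher and lower in CM numbered 4, 8 and 1. With no centring 2 changed and 2 were higher, and quantile normalization left 4 higher. Sums over peaks gave 1 changed and 3 higher, and recovered pileup 15 changed and 3 lower. Regions called in at least 2 libraries, with missing values at the lowest fold, gave 33, 13 and 7. Leaving out each library gave 2 to 7 changed, 2 to 8 higher and 0 to 1 lower. For recovered pileup, alternatives chosen after seeing the data gave 2 higher and 5 lower of 43, against 12 and 3, and 1 higher of the 5 at MYOCD with no centring. Leaving out each library gave 6 to 16 higher and 1 to 4 lower of 43 and 2 to 5 higher of 5, with 1 lower without hESC replicate 1, and with higher counts of 6 and 2 without CM replicate 2, 7 and 2 without hESC replicate 1 and 7 and 3 without hESC replicate 2.

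Of the loci, 2 changed and 1 was higher in CM. With no filter both counts were 0, and with lists of equal length both were 0. Flanks of 100 kb gave 1 changed, −log10 q of at least 5 gave 2 higher, SRF being added (limma adjusted p = 0.0437), and leaving out each library gave 1 to 2 for both. The main fits did not pair the libraries by replicate number, and the values do not settle whether these numbers pair them. The correlations of their deviations over regions were over 0.1 for the pairs among hESC, MES and CP (0.13 to 0.19). They ran from −0.12 to 0.0001 for the pairs with CM, and over loci from −0.19 to 0.22. With the replicate block 1 locus changed, the F call of MRTFA being lost (limma adjusted p = 0.0746), and 1 was higher, and the counts of regions stayed at 4, 8 and 1.

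Signs turned only at differences that were not called, MRTFB region 17 excepted. With no centring the fold differed by −0.0758 at the start of MEF2A, −0.17 at MEF2C, −0.0869 at MYOCD and −0.0444 at MRTFB. Sums over peaks gave −0.15 at the MEF2C start and −0.0591 at MRTFB region 17. Leaving out each library gave −0.11 to 0.20 at the MEF2C start, −0.0131 to 0.36 at the MRTFB start and −0.20 to 0.0108 at the MEF2B start. Peaks per 100000 differed at MEF2B by −0.0436 for the gene span, −0.12 for 100 kb flanks, −0.077 for the stricter q, −0.12 for equal length and −0.15 to 0.34 without each library. MEF2C gave 0.0331 for the gene span, and MEF2D −0.22 for equal length and −0.0717 to 0.40 without each library. The causes were not tested.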
